A study of Mus musculus with 2 samples.

Results

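The angiopoietin system was followed in cultured pericytes through 7 genes, Angpt1, Angpt2, Angpt4, Tek, Tie1, Angptl2 and Angptl4, out of 20887 genes that could be named on the array. They were taken by symbol through the RefSeq accession of each non-control probe, and each of the 7 genes had 1 probe printed once per array. Pericytes are the contractile cells that wrap small vessels, and these came from the cavernous tissue of the penis of C57BL/6 mice. The high glucose cells were kept for 72 h in 30 mmol glucose and the normal glucose cells for 72 h in 5 mmol, as the labels write it, without a volume. Both were grown in DMEM with 20% FBS, antibiotics and pigment epithelium-derived factor (PEDF, human) at 10 nM. Each condition was 1 pool of RNA from 3 samples, hybridised to 1 Agilent 1-colour array. The labels do not say whether the 3 samples came from separate animals. With 1 array per condition there was no replicate check and no p-value is given. Every difference below is between these 2 pools.

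Angiopoietins are secreted glycoproteins that bind Tie2, the receptor tyrosine kinase encoded by Tek, which is found mainly on endothelial cells. Angpt1, made by pericytes and other cells around vessels, activates Tie2 and steadies the vessel wall, while Angpt2, released mostly by endothelial cells, blocks or weakly activates it depending on the setting. Tie1 is a related receptor that binds no angiopoietin with high affinity and tunes Tie2. Most angiopoietin-like proteins share the domain plan of angiopoietins but do not bind Tie2, and Angptl4 is best known as an inhibitor of lipoprotein lipase.

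For 4 of the 7 genes a RefSeq promoter of build GRCm38.p6 was at hand, and all 4 are shown. These are a ligand and a secreted relative whose transcripts were measured here, and both receptors, whose transcripts were not. No promoter was at hand for Angpt1, Angpt2 and Angptl4. Each line gives the 250 bases before the transcription start, 5′ to 3′ on the strand of the gene, with matches to a TATA box (TATAAA) or a GC box (GGGCGG), on either strand, in capitals.
Angpt4 (chr2:151910957-151911206, plus strand): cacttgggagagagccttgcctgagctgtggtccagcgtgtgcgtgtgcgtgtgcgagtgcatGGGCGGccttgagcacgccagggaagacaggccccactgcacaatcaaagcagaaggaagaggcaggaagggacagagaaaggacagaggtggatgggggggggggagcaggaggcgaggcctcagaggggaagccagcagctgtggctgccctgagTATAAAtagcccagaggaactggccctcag
Tek (chr4:94739039-94739288, plus strand): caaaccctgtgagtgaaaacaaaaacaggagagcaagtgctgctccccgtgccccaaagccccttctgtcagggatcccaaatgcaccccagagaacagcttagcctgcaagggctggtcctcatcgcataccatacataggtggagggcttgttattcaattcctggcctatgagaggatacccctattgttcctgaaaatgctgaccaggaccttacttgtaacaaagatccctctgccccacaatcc
Tie1 (chr4:118489850-118490099, minus strand): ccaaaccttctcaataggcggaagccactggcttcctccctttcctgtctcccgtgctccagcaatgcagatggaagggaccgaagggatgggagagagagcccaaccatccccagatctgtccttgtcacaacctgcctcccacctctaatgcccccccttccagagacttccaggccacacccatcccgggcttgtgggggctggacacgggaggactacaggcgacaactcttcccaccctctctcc
Angptl2 (chr2:33215711-33215960, plus strand): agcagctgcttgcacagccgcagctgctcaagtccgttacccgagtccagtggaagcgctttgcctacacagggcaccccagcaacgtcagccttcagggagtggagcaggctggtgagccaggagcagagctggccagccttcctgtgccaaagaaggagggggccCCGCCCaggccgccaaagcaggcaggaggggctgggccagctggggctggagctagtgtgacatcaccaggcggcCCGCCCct
The Angpt4 promoter held 1 TATAAA, which began 30 bases before the start, and 1 GGGCGG. The Angptl2 promoter held 2 GC boxes and no TATAAA. The Tek and Tie1 promoters held neither motif. Of 32851 mouse promoters of the same length, 12.4% held TATAAA and 32.7% held GGGCGG on either strand. The core of the hypoxia response element, ACGTG, was in none of the 4 promoters and in 16.6% of all. The ETS core GGAA, bound by a family of factors active in endothelium, occurred 7 times in the Tie1 promoter, 5 times in that of Angpt4 and 2 times each in those of Tek and Angptl2. At least 1 GGAA was found in 93.4% of all promoters. No base of these 4 promoters lay in matches to more than 1 of the 4 motifs searched. The GC content was 62.4% for Angpt4, 51.2% for Tek, 60.4% for Tie1 and 66.8% for Angptl2, against a median of 52.4% over all promoters. These matches describe letters in a window and were not set against the expression values.

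The values are processed signals, linear fluorescence intensities from which background was subtracted within the array. A probe was taken as measured when its spot was flagged as well above background, and not as saturated, on both arrays. By this filter 5 of the 7 genes were measured, namely Angpt1, Angpt2, Angpt4, Angptl2 and Angptl4, and 2 were above background on neither array. Over the whole array, 14178 named genes (67.9%) passed. The lowest signal called well above background was 24.0 on the high glucose array and 26.9 on the normal glucose array. Fold changes were taken after dividing each array by its 75th percentile, 869 for high and 913 for normal glucose. Probes differ in how brightly they light up, so no order of genes was read from their signals.

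**Figure D1:**
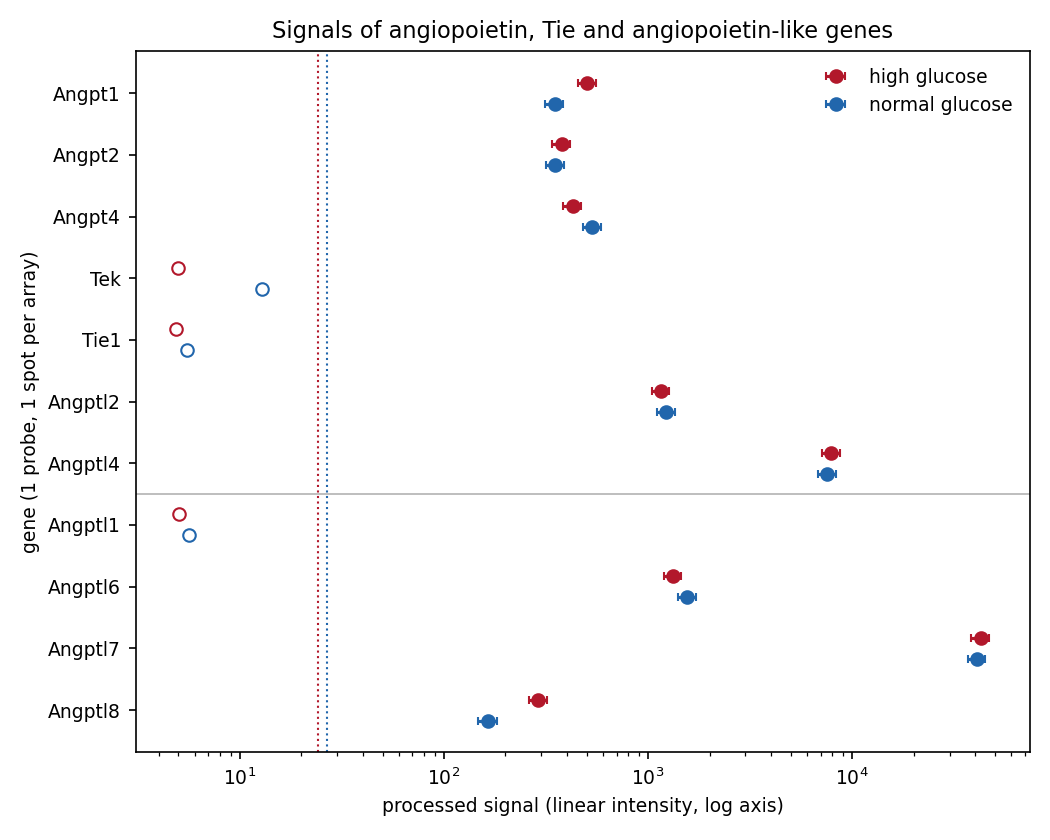
Processed signal (linear intensity on a log axis) of the 7 genes and, under the grey line, of 4 other angiopoietin-like genes, in high glucose (red) and normal glucose (blue). Bars are the error the scanner software gives for a spot, and open points without bars are spots not well above background, left of the dotted lines that mark the lowest signal well above background on each array. Levels of different genes are not comparable. The Angpt1 signal was 504 in high and 349 in normal glucose, and its bars do not overlap.

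Angpt1, the Tie2 activator, had the largest log2 ratio of the 5 measured genes. Its processed signal was 503.8 ± 50.6 in high glucose and 348.5 ± 35.3 in normal glucose, where the errors are those the scanner software attaches to a spot. The error intervals of the arrays did not overlap. After scaling, Angpt1 was 1.52-fold higher in high glucose, a log2 ratio of 0.60. The ratio computed from the middle pixel of the spot less its local background was also 0.60. Dim spots around it, read without background subtraction, were shifted the other way, by -0.16 on the log2 scale. Their part in the result was not tested.

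Technical error was read in 2 ways. Probes printed 8 or more times per array gave an SD of the log2 ratio of a single spot, with a median of 0.10 over 47 such probes with signals from 128 to 512, the range of Angpt1, Angpt2 and Angpt4. The software errors of both arrays together came to 0.21 for Angpt1. The Angpt1 ratio was 5.91 times the repeat-spot SD and 2.93 times the software error. Neither measure holds the differences between cultures, which pooling hides.

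Angpt2 had a processed signal of 377.9 ± 38.2 in high glucose and 351.3 ± 35.6 in normal glucose. These intervals overlapped. The log2 ratio was 0.18, which was 1.73 times the repeat-spot SD and smaller than the software error of 0.21. In its signal range, 16.2% of named genes measured on both arrays had a ratio at least as high.

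Angpt4, which also binds Tie2, was the one angiopoietin with a lower signal in high glucose. It read 427.8 ± 43.2 in high glucose and 533.0 ± 53.8 in normal glucose. The intervals did not overlap before scaling but did overlap after it. The scaled log2 ratio was -0.25, or 1.19-fold lower. That ratio was 2.40 times the repeat-spot SD in size and 1.19 times the software error. In its signal range 10.4% of genes had a ratio at least as low.

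Differences between the ratios of 2 ligands do not depend on the constant factor by which each array was scaled. Normalization that varies with signal can still move them. The log2 ratio of Angpt1 exceeded that of Angpt2 by 0.43, a relative change of 1.34-fold. This was 2.95 times the repeat-spot SD of such a difference, 0.14, and 1.46 times its software error, 0.29. The log2 ratio of Angpt1 exceeded that of Angpt4 by 0.85, which was 5.88 times the repeat-spot SD and 2.91 times the software error.

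The Tie receptors gave no ratio. Tek, the angiopoietin receptor Tie2, read 5.00 in high glucose and 12.8 in normal glucose, with software errors of 5.02 and 5.77. The normal glucose spot was called positive and significant but not well above background, and the high glucose spot neither. Tie1 read 4.88 in high glucose and 5.48 in normal glucose, both with errors as large as the signal. The software replaces values that are not positive and significant by small positive stand-ins, so no ratio was read for either receptor.

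The angiopoietin-like genes among the 7 were within 1.2-fold. Angptl2, a secreted glycoprotein linked to inflammation in obesity, read 1156 ± 116 in high glucose and 1226 ± 123 in normal glucose. The intervals overlapped, and the log2 ratio of -0.01 was smaller than the repeat-spot SD of 0.044 for signals from 512 to 4096. Angptl4 read 7912 ± 791 in high glucose and 7544 ± 754 in normal glucose. Its intervals also overlapped, and the log2 ratio was 0.14. That ratio was 4.40 times the repeat-spot SD of 0.032 above a signal of 4096, but 0.69 times the software error of 0.20. In that range 4.95% of genes had a ratio at least as high. Dim spots around the Angptl4 spot were shifted the same way, by 0.15 on the log2 scale. Their part in its ratio was not tested.

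**Figure D2:**
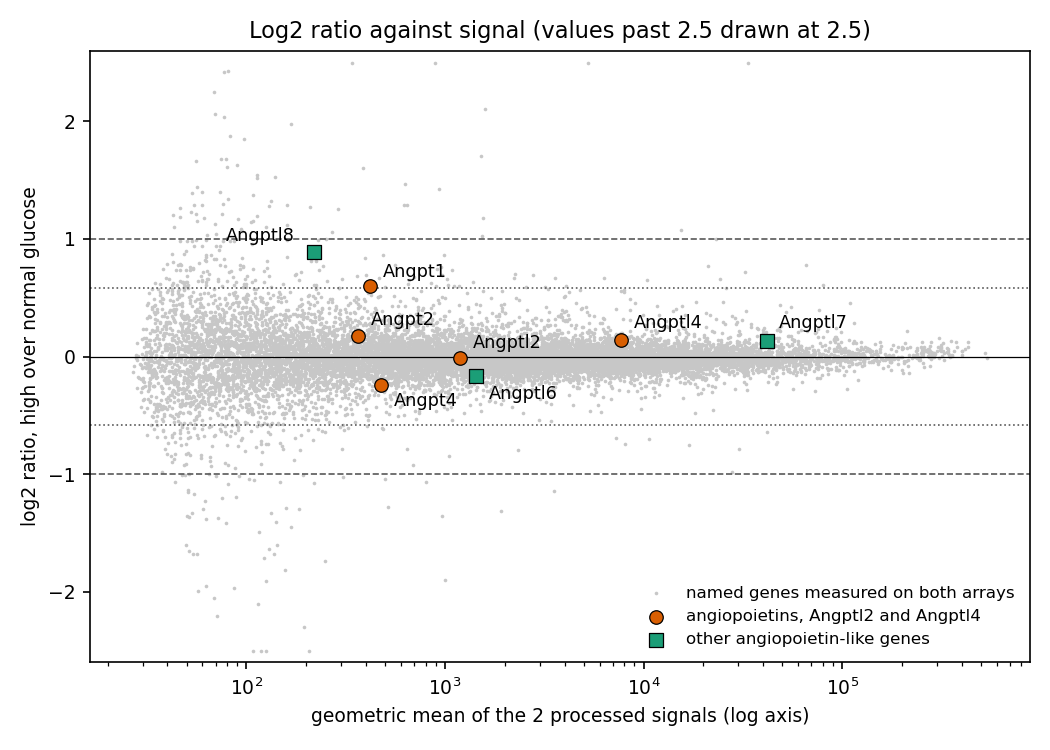
Log2 ratio of high over normal glucose against the geometric mean of the 2 processed signals for 14178 named genes (grey), with the measured angiopoietin and angiopoietin-like genes marked. Dotted lines mark 1.5-fold and dashed lines 2-fold. Angpt1 lies at 0.60, on the edge of 1.5-fold, and the other 4 measured genes of the 7 lie between -0.25 and 0.18, in a cloud that narrows as signal rises.

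Shares of all genes, here and below, are over the 14178 named genes measured on both arrays. Set against these, 1 of the 5 measured genes, Angpt1, was at least 1.5-fold higher in high glucose, where 1.57% were. None was at least 1.5-fold lower, where 1.22% of all measured genes were. At 1.2-fold the counts were 1 higher and none lower, against 6.58% and 5.83% of all genes. None reached 2-fold in either direction, which 0.473% of genes did upward and 0.423% downward. The median log2 ratio of the 5 genes was 0.14, with 3 above 0 and 2 below, and that of all 14178 genes was -0.02. With 2 arrays the pattern of a gene is a single ratio, so no gene can be singled out as most like Angpt1: 209 named genes (1.47%) had a ratio at least as high, 38 of them among the 2464 genes in its signal range (1.54%).

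The Angpt1 call rests on 1 spot of 1 probe. Its ratio was 0.53 with median pixel signals, a normexp background, an offset of 50 and quantile normalization together, and 0.55 after median centring of the arrays, both under the 1.5-fold line of 0.58. Across 429 genes in this signal range with a second measured probe, both probes pointed the same way in 56.6%. Of 5 such genes whose brighter probe was at least 1.5-fold higher, 2 had a second probe that was higher at all. Over all signal ranges 18 of 26 such genes did, and 13 of 26 had a second probe at least 1.2-fold higher.

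**Figure D3:**
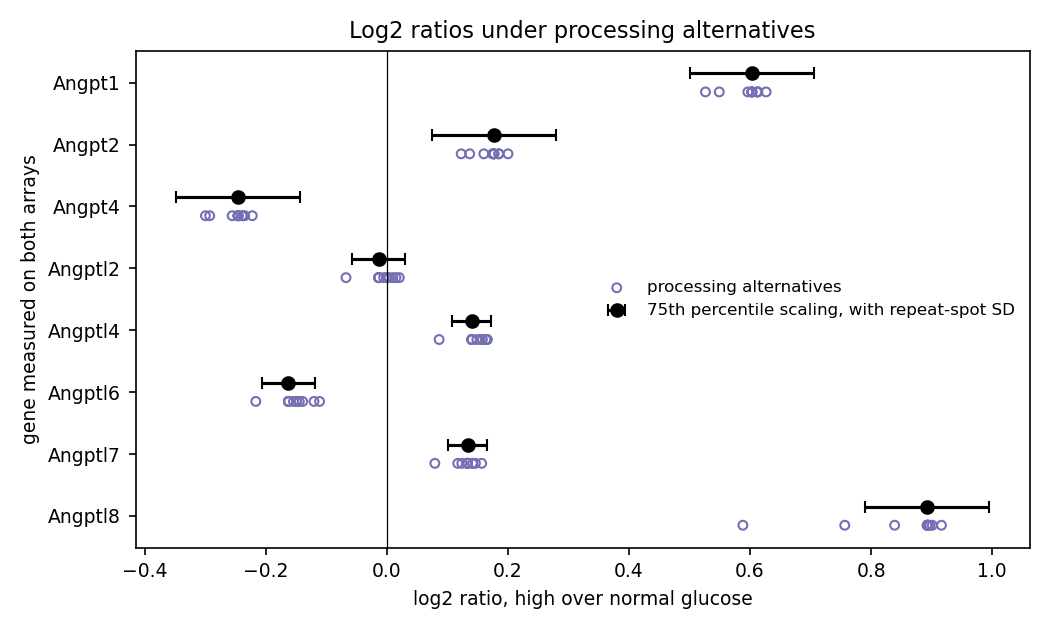
Log2 ratio of high over normal glucose for the 8 measured family genes. Black points are the reported values with the repeat-spot SD of their signal range, and open circles under them are the values under the processing alternatives. Angpt1 ranged from 0.53 to 0.63 and Angpt4 from -0.30 to -0.22, while Angptl2 lay on both sides of 0.

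Of 4 other angiopoietin-like genes, 3 were measured, and 1 of these was at least 1.5-fold higher, where 1.57% of all named genes measured were. Angptl8, which takes part in restraining lipoprotein lipase, read 290.0 ± 29.6 in high glucose and 164.2 ± 17.9 in normal glucose. The intervals did not overlap and it was 1.86-fold higher, with a log2 ratio of 0.89 that 0.69% of genes in its signal range reached. Dim spots around it were shifted the same way by 0.24, its median pixel ratio was 0.76, and their part in the result was not tested. Angptl6, a circulating growth factor, read 1324 ± 133 in high glucose and 1558 ± 156 in normal glucose, a log2 ratio of -0.16. Angptl7, known from the cornea and the outflow tissue of the eye, read 42592 ± 4259 in high glucose and 40808 ± 4081 in normal glucose, a log2 ratio of 0.13. These ratios were 3.69 times the repeat-spot SD in size for Angptl6 and 4.18 times for Angptl7, and for both genes smaller than the software error of 0.20. Angptl1 was above background on neither array, with a signal of 5.04 in high glucose and 5.64 in normal glucose.

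Some spots that match no mouse gene also gave a signal. Among 2772 spots for external control RNAs, whose addition the labels do not mention, 182 (6.57%) were well above background in high glucose and 162 (5.84%) in normal glucose. Signals of 128 or more were read on 39 of these spots in high glucose and 25 in normal glucose, with maxima of 447 and 972. Among 308 negative control spots, none reached 128 in high glucose and 1 did in normal glucose, with maxima of 114 and 170. The part of such signal in the values of Angpt1, Angpt2, Angpt4 and Angptl8 was not tested.

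Among genes that regulate Tie2 or act downstream of it, no measured transcript differed by 1.2-fold, where 6.58% of all genes were higher and 5.83% lower by that much. Of 16 listed partners 15 were measured, with a median log2 ratio of -0.01, 6 above 0 and 9 below. The largest ratios were those of Akt2, a survival kinase, at 0.16, whose 2 further probes gave 0.16 and -0.07, and Tnip2, an adaptor that binds Tie2, at -0.11. The next 3 genes were picked with their values in view. Foxo1 is the transcription factor that Tie2 signalling holds in check and that drives Angpt2 in endothelium. It read 2076 in high glucose and 2353 in normal glucose. Its log2 ratio was -0.11, with -0.05 from its second probe. Ptprb, the endothelial phosphatase that silences Tie2, read 93.6 in high glucose and 101 in normal glucose, a log2 ratio of -0.04, and its second probe was above background on neither array. Svep1, a matrix protein that binds angiopoietins and Tie1, read 16459 in high glucose and 18310 in normal glucose, a log2 ratio of -0.08.

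Integrins and the immune receptor Pirb, to which angiopoietins or angiopoietin-like proteins bind without Tie2, were within 1.2-fold where measured, a line that 6.58% of all genes passed upward and 5.83% downward. Of 7 listed genes 6 were measured, and the log2 ratios of their brightest probes ran from -0.08 for Pirb to 0.08 for Itgb3 with a median of 0.02. Itgb1 was at -0.06, and its second probe gave -0.24. Itga2 was above background in normal glucose only, with a signal of 15.3 in high glucose and 27.7 in normal glucose.

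Lipoprotein lipase, the enzyme that Angptl4 inhibits, was listed with its partners and related lipid uptake genes. Of 10 listed genes 8 were measured, and all 8 were below 0, with a median log2 ratio of -0.22, whereas 56.2% of all named genes measured lay below 0. Of these, 4 were at least 1.2-fold lower, where 5.83% of all genes were, and none was 1.5-fold lower. The 4 were Lpl, Lipg and Cd36, with signals from 128 to 512, where 9.29% of genes were that much lower, and Vldlr. Above 4096, the range of Vldlr by the geometric mean of its 2 signals, 0.955% were. From 512 to 4096, 2.46% were. The list was chosen with earlier results of these data known, so its common direction is not independent evidence. Gpihbp1, which carries the enzyme across the capillary wall, and Lmf2 had ratios of -0.08 and -0.04, within the repeat-spot SD of their signal ranges. Lmf1 and Sel1l lay outside it. The Lmf1 ratio of -0.17 was 5.20 times the repeat-spot SD in size but 0.81 times the software error. Its second probe gave -0.08. The Sel1l ratio of -0.06 was 1.37 times the repeat-spot SD in size. Lpl itself read 274.8 in high glucose and 350.0 in normal glucose, a log2 ratio of -0.28, reached downward by 8.48% of genes in its signal range, and its second probe, at -0.13, lay within the repeat-spot SD of 0.25 for such dim signals. Lipg, the endothelial lipase, read 160.1 in high glucose and 243.3 in normal glucose, a log2 ratio of -0.53 that 2.11% of genes in its range reached. Cd36, a fatty acid transporter, read 123.7 in high glucose and 182.8 in normal glucose, a log2 ratio of -0.49 that 2.72% of genes in its range reached. Vldlr, the receptor for very low density lipoprotein, read 3663 in high glucose and 4816 in normal glucose. Its log2 ratio of -0.32 was reached downward by 0.45% of genes above 4096 and by 4.18% of all measured genes. Vldlr lay near the edge of that range, as its high glucose signal was below 4096. Its second probe gave -0.38. Genes of this list brighter than the median gene had a median of -0.11.

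Regulators and fellow targets of Angptl4 had ratios on both sides of 0. Of 16 genes of the PPAR, glucocorticoid and hypoxia responses 15 were measured, with a median log2 ratio of -0.01, 6 above 0 and 9 below. Slc25a20, the mitochondrial carnitine carrier, was the one member of 15 at least 1.2-fold higher, a share close to the 6.58% of all genes, with 1063 in high glucose and 813 in normal glucose and a log2 ratio of 0.46. Vegfa, the hypoxia-driven endothelial growth factor, read 4275 in high glucose and 5013 in normal glucose, a log2 ratio of -0.16, with -0.24 from its second probe.

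**Figure D4:**
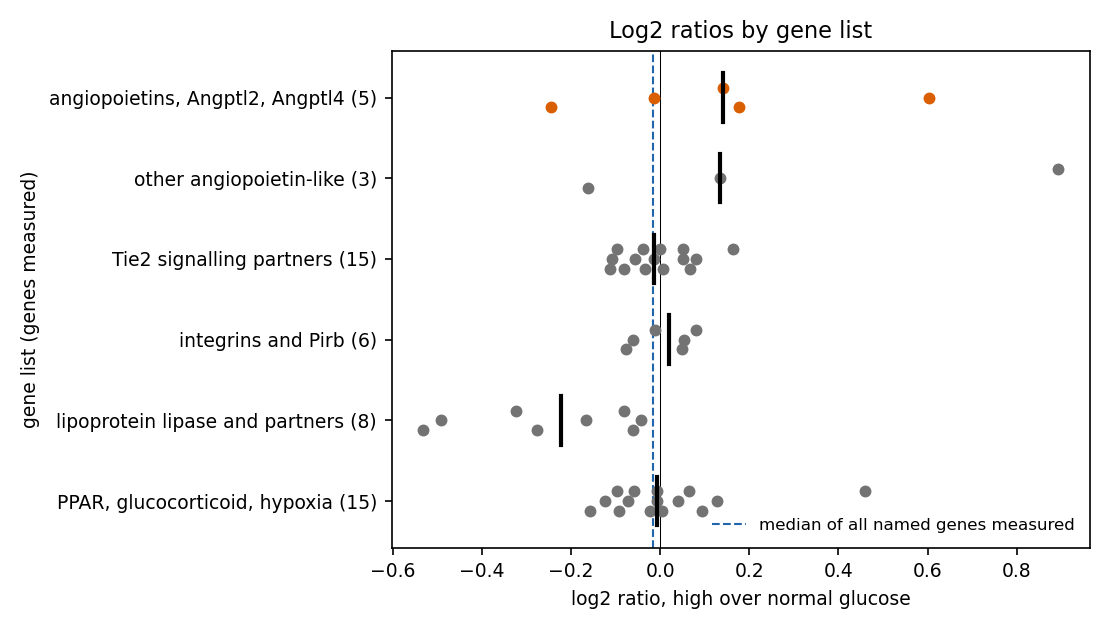
Log2 ratio of high over normal glucose for each measured gene of 6 lists, with the number of genes measured in brackets. Black bars are list medians and the dashed line is the median of all named genes measured. The lipoprotein lipase list lies wholly left of 0, with a median of -0.22, and the Tie2 partners lie between -0.11 and 0.16.

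Marker genes bear on which cells the signals came from. Of 12 pericyte markers 10 were measured on both arrays, and Kcnj8 and Vtn on neither. The median log2 ratio of the 10 was -0.05, with 4 above 0 and 6 below, and they ran from -0.46 for Abcc9 to 0.57 for Rgs5. Pdgfrb had a log2 ratio of 0.13 and Cspg4 of -0.21, while Rgs5 was dim, with 133 in high glucose and 93.9 in normal glucose. Of 14 endothelial markers 8 were measured, with summed signals of 16113 in high glucose and 16931 in normal glucose and a median log2 ratio of 0.00, over a range from -0.54 to 0.19. Cdh5, Cldn5, Erg, Emcn, Robo4 and Sox17 were above background on neither array and Pecam1 read 90.0 in high glucose and 84.6 in normal glucose, whereas Kdr read 7075 in high glucose and 7379 in normal glucose, with 1079 in high glucose and 1374 in normal glucose (log2 ratio -0.28) from its second probe, and Flt1 read 1146 in high glucose and 1432 in normal glucose. Tek and Tie1 thus missed the well-above-background filter together with these 6 of 14 endothelial markers, of which Cdh5 and Cldn5 were still called positive and significant on both arrays, as Tek was in normal glucose. Of 7 immune markers with a probe all 7 were measured, with summed signals of 31006 in high glucose and 30032 in normal glucose. Most of that sum was 1 probe of Itgam, at 22557 in high glucose and 21959 in normal glucose, whose 2 other measured probes were dim, with log2 ratios of -0.23 and -0.50 against 0.11 for the bright one. Csf1r read 4820 in high glucose and 4682 in normal glucose, a log2 ratio of 0.11, and its 2 other probes gave -0.14 and 0.02. Adgre1 read 476 in high glucose and 479 in normal glucose, and Ptprc read 42.5 in high glucose and 39.1 in normal glucose. Summed signals of the brightest probe of each gene were 650935 in high glucose and 672578 in normal glucose for smooth muscle markers. They were 530243 in high glucose and 573531 in normal glucose for fibroblast markers. For pericyte markers they were 108914 in high glucose and 118672 in normal glucose. Probes differ in brightness, so these sums do not rank cell types. All summed signals in this paragraph were taken before scaling by the 75th percentiles, 869 for high and 913 for normal glucose. They therefore do not compare the conditions. After scaling, all 8 smooth muscle markers had log2 ratios above 0. The part of other cells in the angiopoietin results was not tested. In pooled bulk RNA, fewer cells of a type and less RNA per cell cannot be told apart.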

How the data were processed

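Gene expression was measured on 2 arrays, 1 per condition, each with RNA pooled from 3 samples. The deposited intensity values were extracted from 1-colour scans with Feature Extraction 11.5.1.1, per the file headers, while version 9.3.2.1 stands in the submitters' processing notes. The processed signal was background-subtracted and detrended within each array by the authors' software, per the file headers, with low values replaced by positive surrogates. The other deposited columns used were 0 or 1 spot flags. The authors' deposited value table matched these signals for 55249 of 55249 single-spot probes within a relative tolerance of 0.0001.

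Here log2 signals were scaled by the 75th percentile over 59305 gene spots and averaged per probe. Probes were named by unversioned RefSeq accession in the GRCm38.p6 gene table: 27509 of 55681 probes matched 1 symbol and 28172 none. The array design names another build, mm9, so the only coordinates printed are those of the RefSeq promoters, on GRCm38.p6. A gene was given by its brightest measured probe; a probe with repeat spots needed 0.5 of them well above background. No spot was saturated, and 57.6% of gene spots in high and 56.3% in normal glucose were well above background. Precision is limited by the number of arrays.

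The text names the 7 genes, 4 other angiopoietin-like genes (1 gene of that list is not reported here), in each list up to 6 members past 1.2-fold with probes of 1 sign or else the 2 largest, and set markers. The members and lists were chosen with earlier results of these data known. Counting past 2-fold was tested on simulated data with planted changes larger than 2-fold and the same spot error at every signal. That test did not cover smaller folds or the larger error of dim genes. Python 3.11.15, limma 3.58.1 and R 4.3.3 were used. The files hold no mean pixel column, so normexp, with an offset of 50, ran on median pixel signals and was followed by quantile normalization. The 12 processing alternatives changed normalization, background, spot summary, value source, filter or probe choice. Of 8 marker lists, those of smooth muscle, fibroblast, Schwann, epithelial and adipocyte cells had median log2 ratios of 0.08, -0.08, -0.07, 0.22 and 0.26 over 8, 7, 4, 3 and 1 measured genes.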

Additional observations from a re-analysis of the deposited data

How the results depend on the processing

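The signs of Angpt1, Angpt2, Angpt4 and Angptl4 held under each alternative that gave them a value, and their log2 ratios ran from 0.53 to 0.63, from 0.12 to 0.20, from -0.30 to -0.22 and from 0.09 to 0.17. Several alternatives could add little here, as each gene was read from 1 spot of 1 probe. Leaving out outlier spots, loosening or dropping the filter, and taking the median over probes returned the same values. Median centring, scaling over detected probes and the deposited table, which holds the same signals, shifted these genes by a constant. Angptl2 ran from -0.07 to 0.02 and had no stable sign. Genes at least 2-fold higher numbered 67 and lower 60; the counts were 20 and 16 with normexp on median pixels and quantile normalization, 658 and 612 with no filter on dim probes, 285 and 274 with positive and significant signal as the filter, and 3 and 2 among genes brighter than the median gene, so 2-fold counts depend on dim signals. The offset of normexp itself shrinks the ratios of dim genes. Median centring moved the median of all genes to -0.07, and with it Angptl2 to -0.0673, Angptl4 to 0.0865, and the list medians to 0.0794 for other angiopoietin-like genes, -0.0685 for Tie2 partners, -0.0352 for integrins and Pirb, -0.276 for the lipase list and -0.0622 for the PPAR, glucocorticoid and hypoxia list. With no filter on dim probes the other angiopoietin-like genes had a median of 0.0208 and the lipase list -0.278. Among brighter genes the lipase list had -0.113 and the PPAR, glucocorticoid and hypoxia list -0.0584; with the median over probes the lipase list had -0.163. Angptl8 was 0.59 with normexp and 0.76 from median pixels. Angpt1, Angpt2, Angpt4, Angptl2, Angptl6 and Angptl8 are dimmer than the median gene, so the brighter-gene filter left them out; the cause of the remaining shifts was not tested. No paired analysis was possible because each condition has 1 array.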
